A study of Homo sapiens with 12 samples.

Results

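The genes described here make, package, break down and sense acetylcholine, and all 9 were found by name among the 19923 genes of the count files. They are CHAT, SLC18A3, ACHE, BCHE and the nicotinic receptor subunits CHRNA3, CHRNA5, CHRNA7, CHRNB2 and CHRNB4. RNA came from the human lines SK-N-BE2 and NGP, both established from neuroblastoma, with amplified MYCN and a genotype given as WT. Each line was kept for 6 days with STM2457, an inhibitor of the RNA methyltransferase METTL3, or with its vehicle DMSO, and each of the 4 groups had 3 replicates. The STM2457 dose was 12 µM in SK-N-BE2 and 1 µM in NGP, so line and dose cannot be told apart. The labels do not say whether replicates were separate cultures, so p-values measure the spread between these libraries, which may be technical.

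Acetylcholine is made from choline and acetyl-CoA by choline acetyltransferase (CHAT) and loaded into synaptic vesicles by the vesicular acetylcholine transporter (SLC18A3). After release it is split by acetylcholinesterase (ACHE), and also by the broader butyrylcholinesterase (BCHE). Nicotinic receptors are ion channels built from a ring of subunits; in autonomic ganglia and adrenal chromaffin cells, relatives of neuroblastoma cells in the sympathetic lineage, the main form joins CHRNA3 and CHRNB4, with CHRNA5, CHRNB2 or CHRNA7 in other receptors. METTL3 writes N6-methyladenosine into messenger RNA within a short context of which GGACT is a common form.

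The promoter bases of 4 members are shown as examples. CHRNA3 and CHRNB4 lie side by side and rose together in SK-N-BE2, while SLC18A3 and ACHE responded differently in the lines. The members called higher in both lines are not among them. Each run holds the 250 bases before a RefSeq start site (GRCh38.p14), 5′ to 3′ on the strand of the gene. Capitals mark GGGCGG, the core of the GC box that SP1 and SP3 can bind, and CAGCTG, an E-box, on either strand; neighbouring GGGCGG copies overlap in CHRNA3 and ACHE, and CAGCTG overlaps none.
CHRNA3, chr15:78620997-78621246, minus strand: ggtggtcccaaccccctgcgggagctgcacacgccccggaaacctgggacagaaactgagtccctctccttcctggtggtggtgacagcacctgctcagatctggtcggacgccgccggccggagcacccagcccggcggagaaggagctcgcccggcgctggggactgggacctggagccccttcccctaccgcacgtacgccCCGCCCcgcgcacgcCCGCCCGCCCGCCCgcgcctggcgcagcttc
CHRNB4, chr15:78641211-78641460, minus strand: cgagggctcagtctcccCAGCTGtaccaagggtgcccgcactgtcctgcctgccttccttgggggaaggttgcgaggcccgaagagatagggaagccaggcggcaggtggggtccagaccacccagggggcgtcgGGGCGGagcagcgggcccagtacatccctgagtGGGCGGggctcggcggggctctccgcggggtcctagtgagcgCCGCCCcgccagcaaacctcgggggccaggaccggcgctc
SLC18A3, chr10:49610060-49610309, plus strand: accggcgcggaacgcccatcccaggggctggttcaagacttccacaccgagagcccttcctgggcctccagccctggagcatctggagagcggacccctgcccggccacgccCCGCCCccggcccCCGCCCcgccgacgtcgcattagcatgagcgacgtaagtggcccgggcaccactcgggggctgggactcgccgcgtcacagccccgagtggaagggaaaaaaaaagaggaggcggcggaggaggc
ACHE, chr7:100895889-100896138, minus strand: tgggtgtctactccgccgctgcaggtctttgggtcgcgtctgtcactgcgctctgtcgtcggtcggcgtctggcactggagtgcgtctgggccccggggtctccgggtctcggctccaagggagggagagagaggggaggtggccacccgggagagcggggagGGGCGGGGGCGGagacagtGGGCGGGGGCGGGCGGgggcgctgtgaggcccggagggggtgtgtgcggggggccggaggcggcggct
The GGGCGG motif occurred 4 times before CHRNA3, 3 times before CHRNB4, 2 times before SLC18A3 and 5 times before this start of ACHE, which has 3 starts in the table, the others with 0 and 1. Of the 35116 start sites in the RefSeq table, 42.6% had it in the same 250 bases and 13.99% had CAGCTG, which occurred once before CHRNB4. The windows of BCHE and CHRNB2 held neither motif. Each of the overlapping CHRNA7 windows held GGGCGG 6 times, and the windows of CHAT held it 2, 2 and 0 times. Of the 9 members, 8 had an entry in that table, all but CHRNA5. These are matches of letters, not measured binding.

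GGACT was also counted in the reference transcript of each member (Ensembl canonical, GENCODE 44), because METTL3 is the target of the drug. All 9 transcripts held it, as did 87.9% of 19701 protein-coding transcripts. CHRNA5 had the highest density of the members, 1.66 per kilobase, and CHRNA7 the lowest, 0.65, against a median of 0.92 over all transcripts. Within 200 bases of the end of the stop codon, where m6A is known to be frequent, it occurred in CHRNA5, CHRNB2, CHRNB4 and BCHE, and in 35.6% of all transcripts. These 25-base windows show the motif in capitals, with its position from the end of the stop codon (minus: before it).
CHRNA5, at -109 (coding): atgtttctgtGGACTtttcttttcg
CHRNA5, at 12 (after the stop codon): gcctcccaagGGACTgaagtataca
CHRNB2, at -162 (coding): gcgtgagtgaGGACTggaagtacgt
CHRNB4, at -150 (coding): gtgtcgttgaGGACTggaagtacgt
BCHE, at -60 (coding): attacatgatGGACTggaaaaatca
The windows of CHRNB2 and CHRNB4, related beta subunits, share every base from the motif to the window's end. Methylation was not measured in these libraries.

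The libraries held between 47242379 and 58159937 counted reads. Replicate 1 of NGP DMSO was unlike the others of its group: the chi-square per degree of freedom against the other DMSO replicates was 92.6 and 60.8, against 10.96 between those 2, so NGP calls of members are also given without it. To a smaller degree, replicate 2 of NGP STM2457 lay apart from replicates 1 and 3 (12.5 and 14.6, against 2.77 between those). Pairs of SK-N-BE2 libraries gave 24.25 to 41.16 with DMSO and 8.301 to 9.485 with STM2457. Markers of sympathetic neuroblastoma cells summed to between 5485 and 8809 CPM (reads scaled to library size and composition) per library. Most of this came from MYCN, which is amplified in both lines (group means 3970 to 4434 CPM), so the sum says little about the other markers. Among those, TH, the first enzyme of catecholamine synthesis, measured 234 CPM in SK-N-BE2 DMSO against 0.512 in NGP DMSO. A set of 4 fibroblast markers (COL1A1, PDGFRB, DCN and LUM) was higher with STM2457 in both lines, 4 of 4 called, with summed levels going from between 105 and 120 CPM to between 191 and 205 CPM in SK-N-BE2. In NGP the summed levels went from between 56.7 and 69.7 CPM to between 275 and 309 CPM; the part of these markers in the results below was not tested. Markers of Schwann cells, skeletal muscle and leukocytes summed to at most 2.66, 0.939 and 1.29 CPM in any library. Markers of motor neurons, a cholinergic cell type (MNX1, SLC5A7 and CHAT), summed to at most 0.488 CPM in SK-N-BE2. In NGP their sum was 11.1 to 14.5 CPM with DMSO and 4.77 to 9.35 CPM with STM2457, nearly all from MNX1 (log2 change -1.05, edgeR's adjusted p 0.0161), a call lost without STM2457 replicate 1 or 3 (adjusted p at most 0.0665); SLC5A7 had no read. In such bulk RNA, fewer expressing cells and less RNA per cell cannot be told apart. Per the file headers the lines were sequenced in separate runs, so line and run cannot be told apart either.

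With STM2457, 6 members rose in SK-N-BE2, and 3 rose and 1 fell in NGP. In SK-N-BE2, 6 of the 8 members with enough reads to test passed the threshold (edgeR, adjusted p below 0.05), all 6 higher: SLC18A3, BCHE, CHRNA3, CHRNA5, CHRNA7 and CHRNB4. There 54.7% of all tested genes were called, 26.9% higher and 27.8% lower. The 8 members had a median log2 change of 0.51, against -0.02 over all tested genes. In NGP all 9 were tested and 4 were called, BCHE, CHRNA5 and CHRNA7 higher and ACHE lower. The background there was 41.7% called, 19.4% higher and 22.2% lower, so the share of members called was near that of all genes. The NGP median was 0.15 for the members and -0.03 for all tested genes. BCHE, CHRNA5 and CHRNA7 were called higher in both lines.

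**Figure D1:**
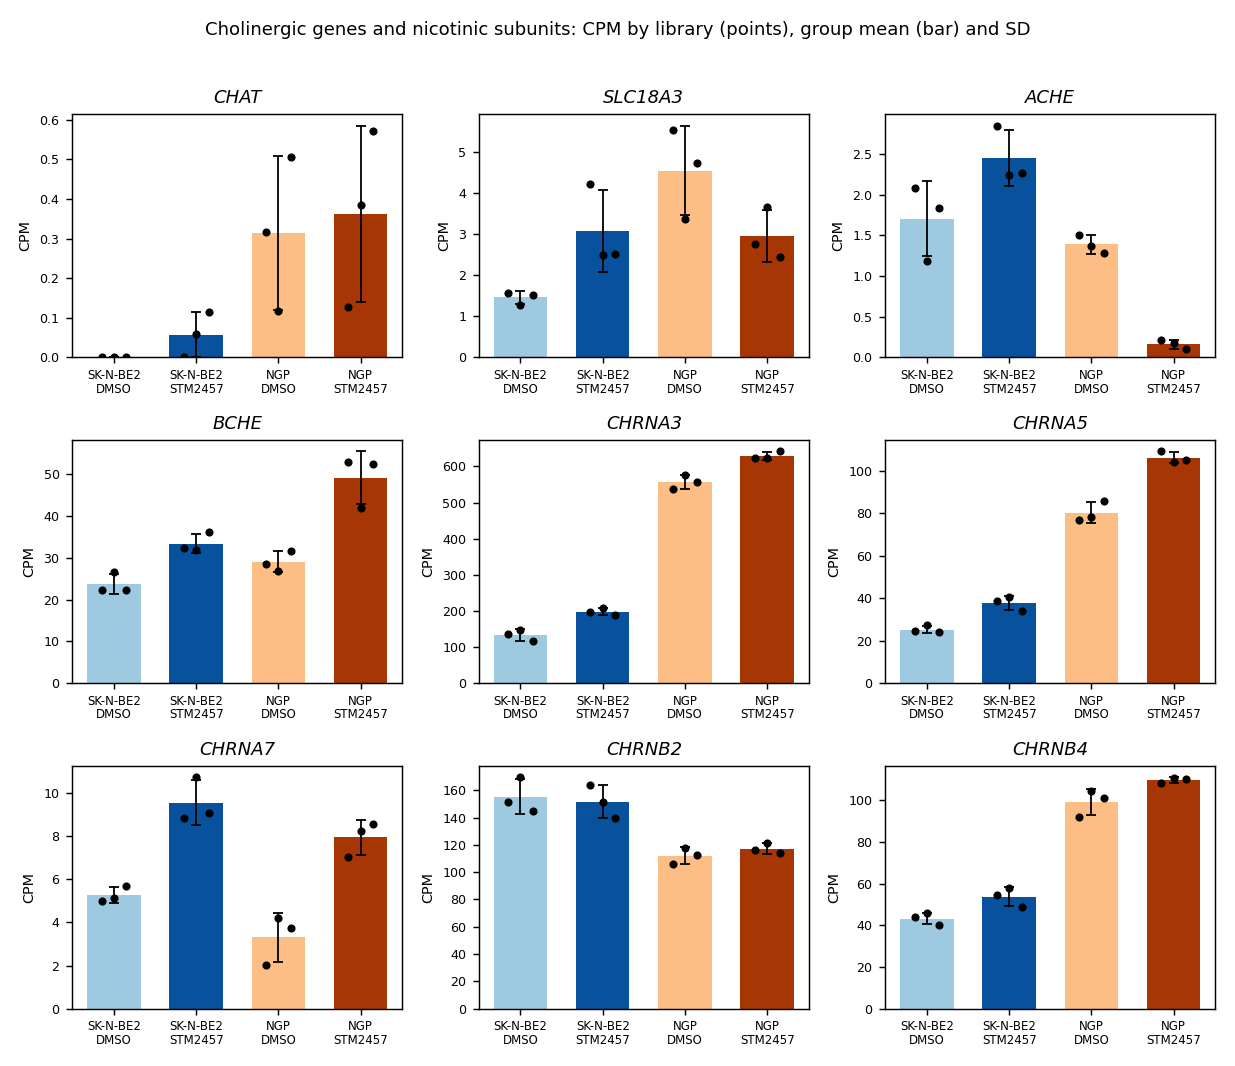
CPM of the 9 members (y axis, linear, each panel with its own scale) in the 4 groups (x axis); points are single libraries, bars are means and error bars are SDs of 3 libraries. ACHE in NGP with STM2457 sits between 0.0986 and 0.214 CPM, below all NGP DMSO libraries, and CHAT is at 0 in all SK-N-BE2 DMSO libraries.

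CHAT, the acetylcholine-synthesising enzyme (chromosome 10, 49609095 to 49665104, plus strand, GRCh38), was close to undetected. It had 0 reads in each SK-N-BE2 DMSO library, which allows up to 3 fragments, or 6 reads since a fragment can add 2, over the group (0.0377 CPM). With STM2457 the SK-N-BE2 libraries held 0, 3 and 6 reads. These are too few for a fold or a test in that line. NGP had 16, 6 and 26 reads with DMSO and 6, 18 and 29 with STM2457, and these ranges overlap. The NGP change was not called (log2 change 0.19, SE 0.65, edgeR's adjusted p 0.839). Between the DMSO groups, the pooled NGP level was 8.33-fold the limit for SK-N-BE2, with no allowance for counting error in NGP. EdgeR called this difference (adjusted p 0.00158). However, CHAT had enough reads for that fit only through NGP, so the call adds no support for higher levels there.

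SLC18A3, the vesicular transporter, lies within an intron of CHAT on the same strand (chromosome 10, 49610310 to 49612720) and shares no counted exon base with it. In SK-N-BE2 it measured 1.57, 1.29 and 1.53 CPM with DMSO and 4.23, 2.50 and 2.51 CPM with STM2457. All treated libraries were higher, and replicate 1 was the highest of them. The log2 change was 1.03 (SE 0.25, edgeR's adjusted p 0.00318), and 0.74 (edgeR's adjusted p 0.0308) without STM2457 replicate 1. NGP began higher, at 5.54, 3.38 and 4.75 CPM with DMSO, and measured 2.78, 3.68 and 2.45 CPM with STM2457. These NGP groups overlap, and the change of -0.64 (SE 0.24) missed the threshold (edgeR's adjusted p 0.0625). That value passed it in DESeq2 (adjusted p 0.0432) and without DMSO replicate 2 (edgeR's adjusted p 0.0251). In the other 11 of 13 alternatives the NGP change was not called. Among them, it was -0.48 without DMSO replicate 1 (edgeR's adjusted p 0.107), and leaving out a library gave adjusted p up to 0.198. The response differed between the lines by 1.69 on the log2 scale (SE 0.37, edgeR's adjusted p 0.00340). With DMSO, SLC18A3 was 3.11-fold higher in NGP than in SK-N-BE2 (log2 difference -1.63, SE 0.27, edgeR's adjusted p 7.23e-05). So the lines, far apart with DMSO, overlapped with STM2457.

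ACHE, which splits acetylcholine at synapses (chromosome 7, 100889994 to 100896974, minus strand), fell steeply in NGP. It measured 1.51, 1.37 and 1.28 CPM there with DMSO and 0.214, 0.171 and 0.0986 CPM with STM2457, from 212 reads to 23 in all. Every treated library lay below every control. The log2 change was -3.12 (SE 0.37, edgeR's adjusted p 0.000364), an 8.69-fold decrease, and was -3.06 (edgeR's adjusted p 0.000271) without DMSO replicate 1. The summed motor neuron markers were lower in the same NGP libraries; their part in this result was not tested. In SK-N-BE2 the libraries gave 2.08, 1.19 and 1.84 CPM with DMSO and 2.84, 2.25 and 2.27 CPM with STM2457. The treated libraries were higher there without overlap, yet the change of 0.49 (SE 0.24) was not called (edgeR's adjusted p 0.108). The difference between the responses was 3.62 on the log2 scale (SE 0.44, edgeR's adjusted p 3.71e-05). The difference between the DMSO groups was not called (log2 difference 0.30, SE 0.27, edgeR's adjusted p 0.335).

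BCHE, the other cholinesterase (chromosome 3, 165772904 to 165837462, minus strand), rose in both lines. The SK-N-BE2 libraries measured 22.2, 26.6 and 22.4 CPM with DMSO and 32.2, 31.8 and 36.1 CPM with STM2457. The NGP libraries measured 28.6, 26.8 and 31.7 CPM with DMSO and 53.0, 41.9 and 52.5 CPM with STM2457. Treated and control libraries were separate in each line. The log2 changes were 0.46 (SE 0.10, edgeR's adjusted p 0.00219) and 0.74 (SE 0.13, edgeR's adjusted p 0.00251), and the difference between them was not called (-0.27, SE 0.17, edgeR's adjusted p 0.249). Without NGP DMSO replicate 1 the NGP value was 0.72 (edgeR's adjusted p 0.000749). BCHE carried most of the cholinesterase RNA: per length (TPM, reads scaled to gene length and to the library's total), its share of the sum with ACHE was 94.8% ± 1.75 in SK-N-BE2 DMSO and 94.7% ± 0.881 with STM2457 (SD, n = 3). In NGP the share went from 96.5% ± 0.471 to 99.8% ± 0.0945, without overlap. An exact two-sided permutation test gave p = 0.10 for the NGP shares, the smallest that 3 against 3 libraries allow (adjusted p 0.136 over 15 such tests of shares).

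**Figure D2:**
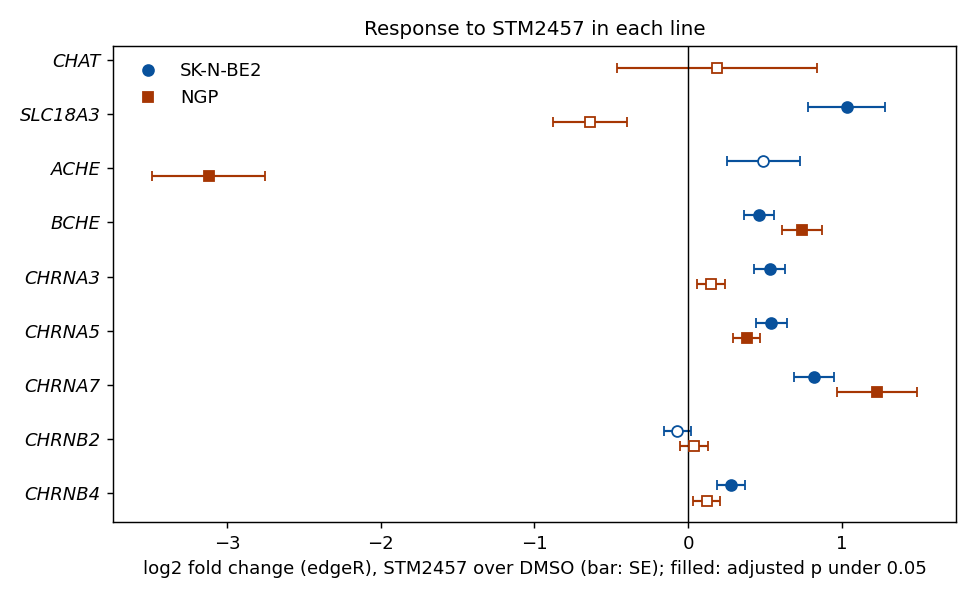
Log2 change of STM2457 over DMSO (x axis) for each member (y axis), with SE bars, circles for SK-N-BE2 and squares for NGP; filled symbols passed an adjusted p under 0.05. ACHE in NGP lies at -3.12, while BCHE, CHRNA5 and CHRNA7 lie above 0 with filled symbols in both lines.

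CHRNA5, CHRNA3 and CHRNB4 form a cluster on chromosome 15. CHRNA5 (78565520 to 78595269, plus strand) meets CHRNA3 (78593052 to 78621295, minus strand) tail to tail, and CHRNB4 follows (78624111 to 78727754, minus strand). The counted exons of CHRNA5 and CHRNA3 share 198 bases, 5.47% and 4.16% of their lengths, where reads cannot be assigned without strand. In addition 23.0% of the CHRNA5 exon length overlaps an uncounted other-strand long non-coding gene, so its values are uncertain.

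CHRNA3, the ligand-binding alpha subunit of the ganglionic receptor, had the highest mean per length of the members in every group, though it overlapped CHRNB2 in SK-N-BE2 DMSO. In SK-N-BE2 it measured 136, 148 and 116 CPM with DMSO and 196, 208 and 188 CPM with STM2457, a log2 change of 0.53 (SE 0.10, edgeR's adjusted p 0.000430). The NGP libraries gave 536, 576 and 556 CPM with DMSO and 622, 622 and 641 CPM with STM2457. Treated libraries lay above all controls in both lines, but the NGP value of 0.15 (SE 0.09) was not called (edgeR's adjusted p 0.192). The responses differed by 0.39 (SE 0.13, edgeR's adjusted p 0.0340); this call was lost in 9 of 12 leave-one-out fits, where adjusted p reached 0.112. With DMSO, CHRNA3 was 4.18-fold higher in NGP (log2 difference -2.06, SE 0.10, edgeR's adjusted p 1.31e-10), and the treated SK-N-BE2 libraries stayed below every NGP library.

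CHRNA5, an accessory subunit that alters the calcium permeability and desensitisation of receptors it joins, rose in both lines. Its levels were 24.6, 27.2 and 23.8 CPM with DMSO and 38.7, 40.4 and 33.9 CPM with STM2457 for SK-N-BE2. In NGP it measured 76.6, 78.5 and 85.8 CPM with DMSO and 109, 104 and 105 CPM with STM2457. No treated library overlapped a control of its line. The log2 changes were 0.54 (SE 0.10, edgeR's adjusted p 0.000449) and 0.38 (SE 0.09, edgeR's adjusted p 0.0120). Without STM2457 replicate 1 or 3 the NGP value was no longer called (adjusted p up to 0.0702) and held without DMSO replicate 1 (0.34, edgeR's adjusted p 0.00195). The difference between the responses was not called (0.18, SE 0.13, edgeR's adjusted p 0.333). With DMSO it was 3.19-fold higher in NGP (edgeR's adjusted p 9.83e-10).

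CHRNB4, the beta subunit that pairs with CHRNA3 in ganglia, had the smallest log2 changes of the cluster. Its SK-N-BE2 libraries measured 43.8, 45.7 and 40.3 CPM with DMSO and 54.8, 58.1 and 48.7 CPM with STM2457, a log2 change of 0.28 (SE 0.09, edgeR's adjusted p 0.0212). That call was lost without DMSO replicate 3 or STM2457 replicate 1 or 2 (adjusted p up to 0.109). The NGP libraries measured 92.1, 104 and 101 CPM with DMSO and 108, 111 and 110 CPM with STM2457, and the change of 0.12 (SE 0.09) was not called (edgeR's adjusted p 0.323). Treated and control libraries did not overlap in either line. With DMSO it was 2.29-fold higher in NGP (edgeR's adjusted p 2.64e-08). A long non-coding gene on the other strand overlaps 3.31% of its exon length.

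**Figure D3:**
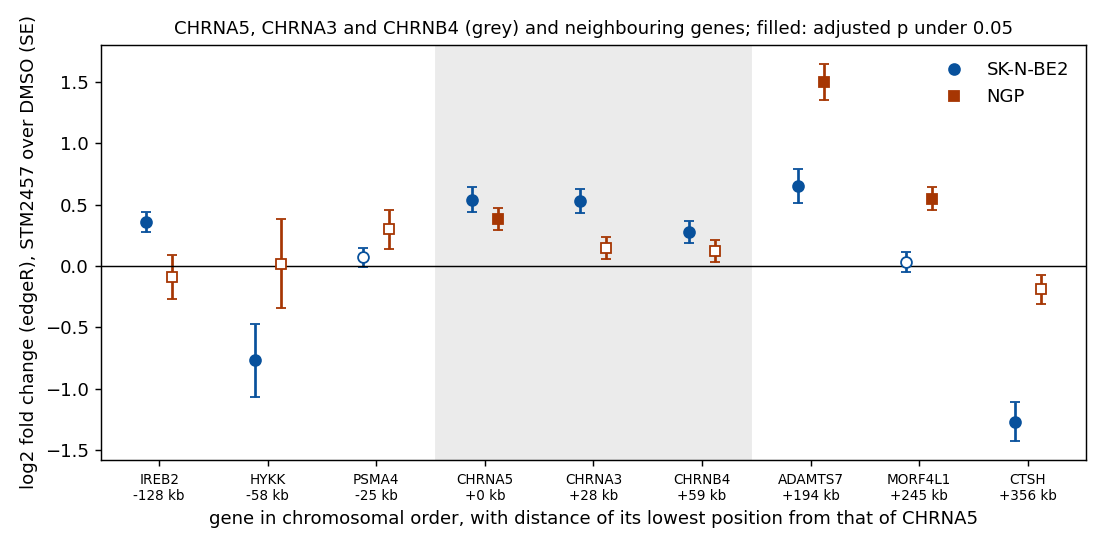
Log2 change of STM2457 over DMSO with SE (y axis) for CHRNA5, CHRNA3 and CHRNB4 (grey) and 6 neighbouring genes in chromosomal order (x axis, with distance in kilobases from the start of CHRNA5); circles are SK-N-BE2, squares NGP, filled where the adjusted p was under 0.05. The neighbours move in both directions in SK-N-BE2, from -1.27 for CTSH to 0.65 for ADAMTS7.

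The genes around the cluster were examined as a listed set of 6. In SK-N-BE2, 2 were called higher and 2 lower, and in NGP 2 higher and 0 lower (the smallest adjusted p of a lower value was 0.256). ADAMTS7, a metalloprotease gene 194 kb from the start of CHRNA5, rose in both lines, by 0.65 (SE 0.14, edgeR's adjusted p 0.00147) and 1.5 (SE 0.15, edgeR's adjusted p 0.000151). CTSH, which encodes cathepsin H, fell by 1.27 on the log2 scale in SK-N-BE2 (SE 0.16, edgeR's adjusted p 1.76e-05). MORF4L1, a chromatin protein gene, rose by 0.55 in NGP (SE 0.09, edgeR's adjusted p 0.00198). HYKK fell by 0.77 in SK-N-BE2 (edgeR's adjusted p 0.0412), a call lost in 9 of 12 alternatives, among them all 6 leave-one-out fits (their adjusted p reached 0.114). PSMA4, the proteasome gene nearest to CHRNA5, named after its values were known, was not called in either line (0.07 and 0.30, edgeR's adjusted p 0.493 and 0.159).

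CHRNA7 encodes the subunit of homomeric alpha-bungarotoxin-binding receptors (chromosome 15, 31923438 to 32173018, plus strand). It rose in both lines. The SK-N-BE2 libraries measured 5.00, 5.15 and 5.68 CPM with DMSO and 8.83, 10.7 and 9.06 CPM with STM2457. In NGP they measured 2.03, 4.19 and 3.73 CPM with DMSO and 7.03, 8.26 and 8.56 CPM with STM2457, with DMSO replicate 1 the lowest. The log2 changes were 0.82 (SE 0.13, edgeR's adjusted p 0.000194) and 1.23 (SE 0.26, edgeR's adjusted p 0.00585); without NGP DMSO replicate 1 the NGP value was 0.98 (edgeR's adjusted p 0.000571). The difference between the responses was not called (-0.41, SE 0.30, edgeR's adjusted p 0.331). With DMSO CHRNA7 was 1.59-fold higher in SK-N-BE2 (edgeR's adjusted p 0.0126), the reverse of the cluster genes; the log2 difference of 0.67 was 0.44 (edgeR's adjusted p 0.0210) without NGP DMSO replicate 1. CHRNA7 has a partial near-identical copy, CHRFAM7A: 24.4% of the 50-base windows of its counted exons occur in that gene too. Per the file headers, reads aligned to several places were not counted, so both values are uncertain. CHRFAM7A itself had log2 changes of 0.72 in SK-N-BE2 (edgeR's adjusted p 0.0436) and 1.58 in NGP (edgeR's adjusted p 0.0341); the calls were lost in 7 of 13 and 4 of 12 alternatives, with adjusted p up to 0.167 and 0.118 when a library was left out.

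CHRNB2, the main beta subunit of brain nicotinic receptors (chromosome 1, 154567778 to 154580013, plus strand), was abundant and not called in either line. SK-N-BE2 had 151, 170 and 145 CPM with DMSO and 164, 152 and 139 CPM with STM2457. The NGP libraries gave 106, 118 and 113 CPM with DMSO and 116, 122 and 114 CPM with STM2457. The groups overlapped in both lines. The log2 changes were -0.07 (SE 0.09, edgeR's adjusted p 0.520) and 0.04 (SE 0.09, edgeR's adjusted p 0.758). With DMSO it was 1.39-fold higher in SK-N-BE2 (log2 difference 0.47, SE 0.09, edgeR's adjusted p 0.000282).

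Between the DMSO groups 8 of the 9 members were called, 2 higher in SK-N-BE2 (CHRNA7 and CHRNB2) and 6 higher in NGP (CHAT, SLC18A3, BCHE, CHRNA3, CHRNA5 and CHRNB4), against 71.1% of all tested genes called, 35.7% higher in SK-N-BE2 and 35.4% lower. CHAT had enough reads to be tested here only through NGP, so its call adds no support for higher levels there. The call for BCHE (log2 difference -0.29, SE 0.12, edgeR's adjusted p 0.0393) was lost in 10 of 18 alternatives, with adjusted p up to 0.189 when a library was left out. For the difference between the responses, 3 of 9 members were called, all higher in SK-N-BE2, against 30.9% of all tested genes, 17.0% higher and 13.9% lower.

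Levels of different genes were compared per length, as TPM within a group. In SK-N-BE2 DMSO, CHRNA3 (85.6 ± 11.4 TPM) and CHRNB2 (80.8 ± 7.87 TPM; SD, n = 3) overlapped at the top, followed by CHRNB4, BCHE and CHRNA5, whose neighbours in the order also overlapped. With STM2457, CHRNA3 (138 ± 12.9 TPM) stood clear of CHRNB2 (85.7 ± 9.77 TPM). In NGP DMSO, CHRNA3 reached 484 ± 67.8 TPM, 5.27 times the next member, CHRNA5, which overlapped CHRNB4 as that overlapped CHRNB2. SLC18A3, ACHE, CHRNA7 and CHAT were the lowest of the 9 in all groups, at most 7.69 TPM, with ACHE last in NGP with STM2457 and overlapping CHAT there. The long counted exons of CHRNA7, 20978 bases, lower its TPM. Summed over the 5 nicotinic subunits, NGP DMSO held 738 ± 106 TPM and SK-N-BE2 DMSO 215 ± 22.7 TPM (SD, n = 3), a log2 ratio of 1.78; the median tested gene was itself 0.43 lower in SK-N-BE2 on the TPM scale, and per length on the CPM scale the ratio was 1.34.

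Shares within a library do not depend on that scale. Among CHRNA3, CHRNA5 and CHRNB4, CHRNB4 made up 19.96% ± 0.748 in SK-N-BE2 DMSO, 17.2% ± 0.475 with STM2457, 12.5% ± 0.346 in NGP DMSO and 12.0% ± 0.204 with STM2457 (SD, n = 3). The SK-N-BE2 groups did not overlap, and the NGP groups did. CHRNA5 made up 13.96% ± 0.753 in NGP DMSO and 16.0% ± 0.467 with STM2457, without overlap, while in SK-N-BE2 its shares overlapped (16.0% ± 0.773 and 16.6% ± 0.523). Of the 2 beta subunits, CHRNB2 was 75.2% ± 0.680 of the sum in SK-N-BE2 DMSO and 48.9% ± 0.346 in NGP DMSO. With STM2457 its share was lower in both lines, 70.5% ± 1.46 and 47.5% ± 0.743, without overlap. Exact permutation tests of these 15 comparisons could not go below p = 0.10, and none passed the threshold.

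**Figure D4:**
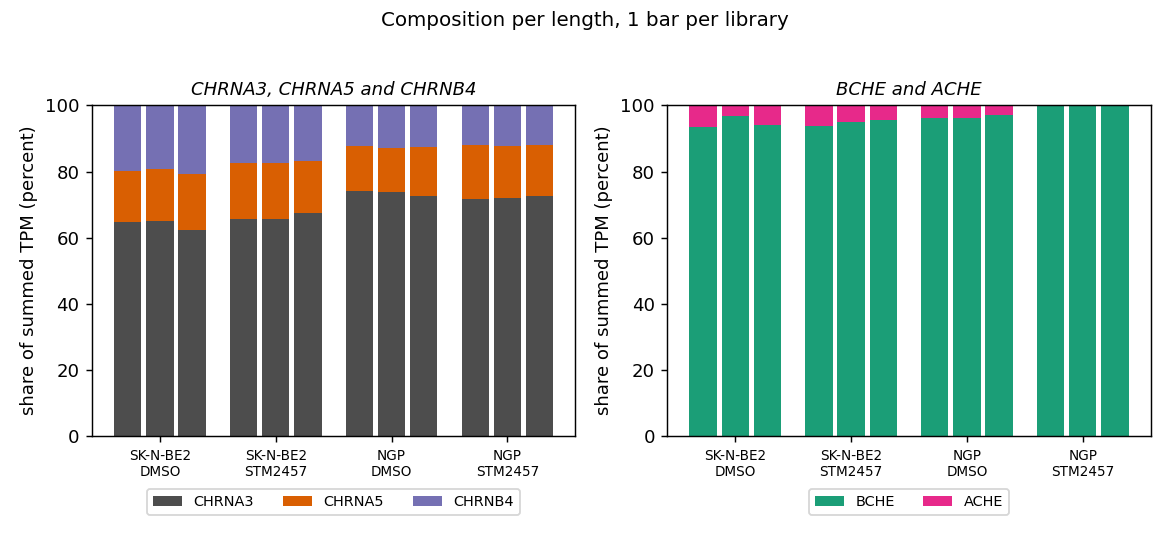
Share of summed TPM (y axis, percent) of CHRNA3, CHRNA5 and CHRNB4 (left) and of BCHE and ACHE (right), with 1 bar per library grouped by line and treatment (x axis). The CHRNB4 part is larger in SK-N-BE2 DMSO (19.96%) than in NGP DMSO (12.5%), and the ACHE part nearly vanishes in NGP with STM2457.

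The other nicotinic subunits, 12 listed genes that include the muscle subunits, were examined as a list. In SK-N-BE2, 5 were tested, with 1 called higher and 4 lower, and in NGP 7 were tested, with 1 higher and 2 lower. The shares called over all tested genes were 54.7% and 41.7%. CHRND, the delta subunit of the muscle receptor, measured 36.8 ± 1.35 CPM in NGP DMSO libraries and fell to 2.88 ± 0.415 CPM (SD, n = 3; log2 change -3.70, SE 0.15, edgeR's adjusted p 2.50e-06). It had only 8 and 10 reads in the SK-N-BE2 groups. Of 4 skeletal muscle markers (MYOD1, MYOG, ACTA1 and CKM), the summed level in NGP was 0.447 to 0.939 CPM with DMSO and 0.493 to 0.641 CPM with STM2457. Within this sum CKM went from 46 to 5 reads, too few for a test, with all treated libraries below every control. ACTA1 went from 52 to 47 reads, MYOG from 12 to 24 and MYOD1 from 0 to 8. CHRNA9, a subunit of cochlear hair cell receptors, measured 1.29 ± 0.636 CPM in SK-N-BE2 DMSO libraries and fell to 0.0630 ± 0.0208 CPM (log2 change -4.33, SE 0.57, edgeR's adjusted p 2.81e-05). In NGP its level was 0.280 CPM with DMSO and 0.832 CPM with STM2457, not called (log2 change 1.54, edgeR's adjusted p 0.0833), and the difference between the responses was -5.86 (edgeR's adjusted p 0.000382). For SK-N-BE2 its partner CHRNA10 fell by 1.52 (log2; SE 0.37, edgeR's adjusted p 0.00332), while the NGP value missed the threshold (0.37, edgeR's adjusted p 0.571). The difference for CHRNA10, -1.88 (edgeR's adjusted p 0.0352), lost its call in 10 of 17 alternatives (adjusted p at most 0.0868 in leave-one-out fits). CHRNA1, the muscle alpha subunit, had no read in SK-N-BE2 and fell in NGP by 0.94 (edgeR's adjusted p 0.0400), with overlapping groups and a call lost in 6 of 13 alternatives (adjusted p up to 0.149 when a library was left out).

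Muscarinic receptors, the G-protein-coupled sensors of acetylcholine, changed in both directions. Of the 5 genes, 4 were tested in SK-N-BE2, with 3 called higher and 1 lower, and 5 in NGP, with 2 higher and 1 lower. Among all tested genes, 54.7% and 41.7% were called. CHRM3, named after its values were known, was the most abundant of the 5 in SK-N-BE2. It fell there from 36.6 ± 4.19 to 30.8 ± 2.05 CPM (log2 change -0.29, SE 0.10, edgeR's adjusted p 0.0273). In NGP its change was not called (-0.58, SE 0.23, edgeR's adjusted p 0.0725). CHRM1 rose in both lines, from 3.18 ± 0.508 to 9.10 ± 1.15 CPM in SK-N-BE2 and from 0.557 ± 0.137 to 2.06 ± 0.0308 CPM in NGP (log2 changes 1.48 and 1.86, SE 0.16 and 0.28, edgeR's adjusted p 5.94e-06 and 0.00108). CHRM2 rose from 1.87 ± 0.227 to 6.22 ± 0.697 CPM and from 5.48 ± 1.21 to 13.6 ± 1.07 CPM (1.69 and 1.28, SE 0.17 and 0.19, edgeR's adjusted p 3.69e-06 and 0.000959). For neither gene was the difference between the lines called (edgeR's adjusted p 0.366 and 0.229). CHRM5 rose by 1.57 in SK-N-BE2 (edgeR's adjusted p 0.000186) and is uncertain, since exons of AVEN on the other strand cover 14.1% of its exon length. CHRM4 fell by 2.21 on the log2 scale in NGP (SE 0.29, edgeR's adjusted p 0.000592), from 3.17 ± 0.932 to 0.694 ± 0.0202 CPM.

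Among 11 genes for receptor assembly and accessory proteins, 3 of 7 tested were called higher and 0 lower in SK-N-BE2 (the smallest adjusted p of a lower value was 0.174), and 3 higher and 3 lower of 7 in NGP. Background shares called were 54.7% and 41.7% of all tested genes. TMEM35A, also called NACHO, a chaperone needed for the assembly of CHRNA7 receptors, rose from 5.85 ± 1.00 to 24.1 ± 1.81 CPM in SK-N-BE2 (log2 change 2.00, SE 0.13, edgeR's adjusted p 7.00e-08). In NGP it rose from 5.22 ± 0.565 to 14.9 ± 1.52 CPM (1.49, SE 0.15, edgeR's adjusted p 0.000149). RIC3, another chaperone of CHRNA7 receptors, added with its values known, missed the threshold in SK-N-BE2 (-0.31, edgeR's adjusted p 0.174) and fell in NGP (-0.50, edgeR's adjusted p 0.0343). That call was lost without NGP DMSO replicate 2 or 3 or STM2457 replicate 1 or 2 (adjusted p at most 0.137). LRP4, the agrin receptor at the neuromuscular junction, rose by 1.28 and 1.23 (SE 0.11 and 0.12, edgeR's adjusted p 5.61e-07 and 0.000149). LYPD1 fell by 2.65 in NGP (edgeR's adjusted p 0.00154) and is uncertain, since 29.7% of its exon length overlaps GPR39. LY6E rose by 0.36 in SK-N-BE2 (edgeR's adjusted p 0.0135), with the call lost without STM2457 replicate 1 (adjusted p 0.0913).

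Choline supply and cholinesterase anchoring showed mixed changes. SLC5A7, the high-affinity choline transporter of cholinergic terminals, had 0 reads in all 12 libraries, which allows at most 0.0416 CPM in any group. Of the 8 listed choline genes, 6 were tested in SK-N-BE2 with 2 higher and 2 lower, and 5 in NGP with 1 higher and 1 lower. Calls covered 54.7% and 41.7% of all tested genes. CHKA, choline kinase alpha, fell in SK-N-BE2 (-0.50, SE 0.09, edgeR's adjusted p 0.000333), with 16.3% of its exon length shared with an uncounted gene on the other strand. SLC44A2, a choline transporter-like protein gene, rose in both lines (0.31 and 0.55, edgeR's adjusted p 0.0149 and 0.0128), with calls lost without SK-N-BE2 DMSO replicate 3 or STM2457 replicate 1 and without NGP STM2457 replicate 1 (adjusted p up to 0.0800 and 0.0664). SLC44A5 was higher in SK-N-BE2 (0.43, edgeR's adjusted p 0.0262) and lower in NGP (-0.47, edgeR's adjusted p 0.0478), calls lost in 4 and 7 of 13 alternatives (adjusted p up to 0.120 and 0.174 when a library was left out). COLQ, the collagen tail that anchors ACHE at muscle synapses, was lower in NGP (-0.99, SE 0.27, edgeR's adjusted p 0.0181), as ACHE was; the call was lost without STM2457 replicate 3 (adjusted p 0.0657), and exons of EAF1 cover 11.1% of its length. PRIMA1, the membrane anchor of ACHE in neurons, added with its values known, was not called in either line (1.35 and 0.11, edgeR's adjusted p 0.0695 and 0.862).

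The genes with patterns most like those of the members were sought among 12671 genes averaging 1 CPM or more, by the Euclidean distance between centred log2 CPM profiles over the 12 libraries. Since lines and treatment dominate all profiles, these are descriptions. CHRNA3 was nearest to IGFBPL1 (distance 0.43, Pearson r 0.992) and DCAF16 (0.48, r 0.991). CHRNA5 was nearest to CTNNB1 (0.32, r 0.994) and PSMD11 (0.37, r 0.993), and CHRNB4 to LITAF (0.30, r 0.991) and EPHB2 (0.33, r 0.987). For BCHE these were CYB5A and GINS3 (0.37 and 0.38), and for CHRNA7 CEP162 and RP2 (0.64 and 0.69). SLC18A3 was nearest to SPHK2 (0.72, r 0.949) and HRH3 (0.73, r 0.950). ACHE had no gene as close by distance: PRR36 and SH2D3C lay at 1.33 and 1.35, though with r 0.985 and 0.983. It had only 5 to 10 reads in each treated NGP library, and counting error there adds to its distances. SH2D3C went from 13.0 to 30.5 CPM in SK-N-BE2 and from 11.04 to 1.09 CPM in NGP.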

How the data were processed

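RNA was sequenced in 12 libraries, grouped by their titles. The deposited values are whole-number counts per gene. Per the file headers, the authors made these counts with featureCounts 2.0.5 over exons of protein-coding GENCODE 33 genes, without a strand option, multi-mapping reads or pair counting, so a fragment can add 2 reads to a count. Per the submitters' processing notes, FastQC 0.11.5, Trimmomatic 0.36, HISAT2 2.1.0 and Subread 1.5.3 were named with GRCh38; their roles are not given in the sources used here.

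Each line was fitted on its 6 libraries with edgeR 4.0.16 (R 4.3.3): filterByExpr with a minimum count of 10, TMM, the quasi-likelihood test and Benjamini-Hochberg adjustment over all tested genes, called under 0.05. Differences between responses and between DMSO groups were contrasts over all 12 libraries. SEs come from the log2 fold change and the F statistic. CPM uses TMM scaling over all libraries, without a spike-in. TPM uses the gene lengths in the files. Limits for 0 reads are 3 fragments (6 reads) per group and cover counting error only. The fits were tested on simulated data.

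The members and lists were chosen with earlier results of these data known. All members were named; from each list and line, up to 3 called genes reaching 1 CPM were named by fold change, beside genes that neighbour or resemble a member. Alternatives were DESeq2 size factors, DESeq2 1.42.0, no filter, genes averaging 1 CPM or more, halved counts, 1 fit of all libraries, a replicate block and leaving out each library; for levels, RPKM. Exon overlaps were taken from GENCODE 44. Some results on regulators and markers are not reported here.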

Additional observations from a re-analysis of the deposited data

Results flagged for a closer look

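The response of 3 of the 9 members to STM2457 differed between the lines by the test of the difference itself, SK-N-BE2 minus NGP, a share near the 30.9% of all tested genes called. For ACHE this difference was 3.62 on the log2 scale (edgeR adjusted p 3.71e-05): 3 of 3 treated libraries were above all controls in SK-N-BE2, where the rise was not called, and 3 of 3 were below them in NGP. For SLC18A3 it was 1.69 (edgeR adjusted p 0.00340), with 3 of 3 treated libraries above all controls in SK-N-BE2 and 2 of 3 below them in NGP. For CHRNA3 it was 0.39 (edgeR adjusted p 0.0340), lost in 9 of 12 leave-one-out fits (adjusted p at most 0.112), with 3 of 3 treated libraries above all controls in each line. Line, dose and sequencing run cannot be told apart in these differences. Groups of 3 are too small for the check on single outlying samples.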

How the results depend on the processing

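CHAT had 0 to 53 reads per group, too few to test in SK-N-BE2. Leaving out 1 library at a time gave 5 to 6 members called in SK-N-BE2, 3 to 5 in NGP, 2 to 3 for the difference between responses and 7 to 8 between the DMSO groups, against 6, 4, 3 and 8. The log2 ratio of summed nicotinic levels, 1.78 as TPM, was 1.34 as RPKM and 1.69 to 1.89 without single libraries; the TPM scale itself moves the median gene between the lines. Same-numbered libraries showed no clear shared deviation (correlations -0.138 to 0.131 for SK-N-BE2, -0.188 to 0.083 for NGP). Differently numbered libraries gave -0.339 to 0.311 and -0.216 to 0.232. With 3 same-numbered values per line, this check cannot exclude pairing. The replicate block gave 6, 4, 3 and 8 members called. Of 538 values of members under alternatives, 508 kept direction and side of the threshold, 24 lost and 2 gained a call, and 4 changed sign, none of them called in the full fit: CHRNB2 was 0.00 without SK-N-BE2 DMSO replicate 2 (range over left-out libraries -0.13 to 0.00) and 0.00 without NGP DMSO replicate 1 (0.00 to 0.08), and CHAT in NGP was -0.20 without DMSO replicate 2 and -0.31 without STM2457 replicate 3 (-0.31 to 0.71).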

Other observations

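The genes that carry the other transmitter of sympathetic cells, noradrenaline, changed in both directions in each line. Of 6 listed genes, 1 was called higher and 3 lower in SK-N-BE2, and 3 higher and 1 lower in NGP, against 54.7% and 41.7% of all tested genes called. SLC6A2, the noradrenaline transporter, rose in both lines, from 118 ± 7.69 to 251 ± 18.6 CPM and from 31.6 ± 0.947 to 69.4 ± 8.28 CPM (log2 changes 1.05 and 1.11, edgeR's adjusted p 5.83e-07 and 0.000196). DBH, which converts dopamine to noradrenaline, decreased by 1.43 (log2) in SK-N-BE2 (edgeR's adjusted p 7.89e-07), and SLC18A2, a vesicular monoamine transporter, by 1.29 (edgeR's adjusted p 0.000772), while SLC18A3 rose there. SLC18A1, also a vesicular monoamine transporter, was more abundant in SK-N-BE2 (27.3 CPM with DMSO, 30.1 with STM2457) than SLC18A2 (2.48 and 1.04 CPM). The SLC18A1 change was not called there (0.10, edgeR's adjusted p 0.4135). DBH was also lower in NGP (-0.33, edgeR's adjusted p 0.0427), a call lost in 7 of 13 alternatives (adjusted p at most 0.149 in leave-one-out fits), and its responses differed by -1.08 (edgeR's adjusted p 0.000392). The SLC18A2 value is uncertain, since exons of PDZD8 on the other strand cover 52.3% of its exon length. In NGP, DDC and SLC18A1 rose by 1.19 and 1.70 (edgeR's adjusted p 0.000217 and 0.00585).

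Regulators linked to cholinergic genes or to the cholinergic switch of sympathetic neurons were examined as a list of 16. In SK-N-BE2, 13 were tested, with 3 called higher and 3 lower, against 54.7% of all tested genes called. In NGP, 15 were tested, with 3 higher and 1 lower, against 41.7% of all tested genes called. CNTFR, the receptor subunit for ciliary neurotrophic factor, rose in SK-N-BE2 by 0.74 (edgeR's adjusted p 0.000128) and in NGP by 0.48 (edgeR's adjusted p 0.0170), the latter lost without NGP DMSO replicate 3 or STM2457 replicate 2 (adjusted p at most 0.0613). The difference was not called (edgeR's adjusted p 0.324). REST, a repressor of neuronal genes, rose by 1.56 in NGP (edgeR's adjusted p 0.000736) and by 0.40 in SK-N-BE2 (edgeR's adjusted p 0.0206), the latter lost in 4 of 13 alternatives (adjusted p at most 0.0721 in leave-one-out fits), with a called difference of -1.14 (edgeR's adjusted p 0.00398). GATA2 rose by 1.13 in NGP (edgeR's adjusted p 0.000219). SP1 fell by 0.49 in SK-N-BE2 (edgeR's adjusted p 0.000227).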
